A study of Zea mays with 12 samples.

Results

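The genes described here are those whose RPKM (reads per kilobase of gene and per unit of library size) lay below WT in all nkd1-Ds libraries and above WT in all nkd2-Ds libraries of maize endosperm. They were chosen by 4 conditions on the deposited values: a WT mean of at least 2 RPKM, the highest nkd1-Ds value under the lowest WT value, the lowest nkd2-Ds value over the highest WT value, and a mean in nkd2-Ds at least 2 times that in nkd1-Ds. The deposited data cover 34348 genes, of which 20160 had the WT mean, and 83 genes were members. Before the removal of 6 listed identifiers the number was 85, since sus2 and ole17 also met the conditions. All plants were of the W22 inbred background, grown in the field and self-pollinated, and whole endosperms were taken at 16 days after pollination. There were 4 libraries each of nkd1-Ds, nkd2-Ds and WT, described by the series as biological replicates. Each mutant carries the name of the transposon Ds, and how many plants or seed sources stand behind a genotype is not stated.

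nkd1 and nkd2 (naked endosperm) are duplicate genes whose products, INDETERMINATE domain proteins with zinc fingers, regulate transcription during aleurone formation and grain filling. The aleurone, the outermost endosperm layer, holds oil bodies and storage globulins, while the starchy endosperm inside it fills with starch and zein proteins. Oil bodies store triacylglycerol under a coat of oleosins and other oil-body proteins.

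nkd1 averaged 12.8 ± 1.08 RPKM in the libraries labelled nkd1-Ds, 35.1 ± 1.57 RPKM in nkd2-Ds and 49.2 ± 3.41 RPKM in WT (SD, n = 4 each). nkd2 averaged 1.103 ± 0.0780 RPKM in the libraries labelled nkd1-Ds, 1.14 ± 0.141 RPKM in nkd2-Ds and 19.5 ± 0.762 RPKM in WT. The libraries labelled nkd1-Ds were therefore low in both transcripts, and nkd1-Ds below always means these libraries. Whether the low nkd2 level belongs to the nkd1-Ds mutant itself or to the genotype or labels of these samples was not tested, and every difference between nkd1-Ds and WT is one between libraries low in both transcripts and WT. Libraries held 35.3 to 48.0 megareads assigned to genes. The starchy endosperm markers summed to 65809 to 75760 RPKM in nkd1-Ds, 92680 to 142422 RPKM in nkd2-Ds and 97730 to 116395 RPKM in WT. The zein genes zp27, zp15, zp16 and fl2 made up most of each sum, and the nkd1-Ds difference depends on scaling. With reads scaled by library total, the ratio of nkd1-Ds to WT was 1.56, 0.711, 0.950 and 0.858 for these genes. Over the list it ran from 0.711 to 2.05 (o2). These ratios include a shift of all genes, whose median log2 difference between nkd1-Ds and WT was 0.40 on that scale. The 5 pericarp and photosynthesis markers summed to at most 2.80 RPKM in any library. In nkd2-Ds replicates 1 to 4 the value summed over all genes was 1260910, 1008930, 861009 and 835740 RPKM. In WT it ran from 1013380 to 1211720 RPKM, and in nkd1-Ds from 660990 to 734824 RPKM.

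Among the 20160 genes with the WT mean, 30% lay wholly below WT in nkd1-Ds, 9.89% lay wholly above WT in nkd2-Ds, and 0.689% (139 genes) did both before the ratio condition and the removals. The mirror image of the rule, higher in nkd1-Ds and lower in nkd2-Ds, held for 101 genes before the ratio condition and for 22 with it. The mirror count, like the number of members, depends on scaling, as given below. The library values chose the members, so the sizes that follow describe them and carry no test. The nkd2-Ds mean was a median of 4.78 times the nkd1-Ds mean, with a range of 2.002 to 2332. The median ratio of nkd1-Ds to WT was 0.407 and that of nkd2-Ds to WT was 1.79. For 54 members the fold between nkd1-Ds and WT was larger than that between nkd2-Ds and WT, and for 29 it was smaller. This split holds for the authors' scale only. With reads scaled by library total the members' ratios to WT rise in both mutants, so fewer members have the larger fold in nkd1-Ds. The ratio of nkd2-Ds to nkd1-Ds was at least 10 in 10 members, 5 to 10 in 28, 3 to 5 in 23 and under 3 in 22. Most members were transcripts of modest level: 40 averaged under 5 RPKM in WT and 7 averaged at least 20 RPKM, with a median of 5.35 RPKM against 7.57 RPKM over the 20160 genes. The comparison of nkd1-Ds with WT and that of nkd2-Ds with WT share the WT libraries.

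limma called a gene at a Benjamini-Hochberg adjusted p under 0.05 on log2(RPKM + 1). Over 26706 genes tested it called 26.5% higher and 29.2% lower in nkd1-Ds than in WT, and 12% higher and 13.6% lower in nkd2-Ds than in WT. All 83 members entered the fit. It called 81 of them lower in nkd1-Ds and 81 higher in nkd2-Ds, which the rule had used and which therefore carries no weight of its own. The members without a call in nkd1-Ds were gst5 (limma adjusted p = 0.0561) and GRMZM2G450498 (limma adjusted p = 0.0723). Those without one in nkd2-Ds were GRMZM5G829103 (limma adjusted p = 0.343) and GRMZM2G384780 (limma adjusted p = 0.0974).

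In RefSeq, 51 of the 83 members had an entry, and 13 carried a symbol. 4 of these 13 code for proteins of oil bodies or oil synthesis, a grouping made after the members were known and set against no share of all genes. The list of oil bodies and globulins holds 1 of the 4. The oleosin gene GRMZM2G333069, which codes for an oil-body coat protein, had 1.84, 1.74, 2.06 and 1.59 RPKM in nkd1-Ds, 9.87, 14.9, 15.6 and 17.5 RPKM in nkd2-Ds, and 5.73, 5.12, 5.73 and 5.61 RPKM in WT. Its lowest nkd2-Ds library was replicate 1, and WT was tight around its mean. OBAP2A (GRMZM2G043521) and OBAP1A (GRMZM2G044627) code for oil body associated proteins. OBAP2A had 4.85, 4.47, 3.96 and 3.71 RPKM in nkd1-Ds, 14.97, 22.5, 28.0 and 27.4 RPKM in nkd2-Ds, and 10.8, 11.3, 12.3 and 11.1 RPKM in WT. OBAP1A had 14.0, 11.6, 12.2 and 10.5 RPKM in nkd1-Ds, 30.8, 46.6, 52.9 and 55.5 RPKM in nkd2-Ds, and 19.7, 20.7, 18.4 and 18.9 RPKM in WT. For all 3 genes nkd2-Ds replicate 1 was again the lowest of its group. DGAT1-2 (GRMZM2G169089) codes for a diacylglycerol acyltransferase, the enzyme of the last step of triacylglycerol synthesis. It had 1.99, 2.54, 2.06 and 2.48 RPKM in nkd1-Ds, 5.49, 6.67, 5.79 and 8.70 RPKM in nkd2-Ds, and 3.09, 3.37, 3.93 and 2.78 RPKM in WT. The gap between nkd1-Ds and WT was small for DGAT1-2, at 2.54 RPKM for the highest nkd1-Ds library and 2.78 RPKM for the lowest WT library.

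ICL (GRMZM2G056369) codes for isocitrate lyase, an enzyme of the glyoxylate cycle, through which seeds turn stored fat into sugar. It had 1.74, 1.52, 1.91 and 1.35 RPKM in nkd1-Ds, 10.5, 16.3, 23.4 and 22.1 RPKM in nkd2-Ds, and 7.13, 7.83, 9.44 and 7.58 RPKM in WT. Its nkd2-Ds mean was 11.1 times its nkd1-Ds mean, the largest ratio among the members with a symbol.

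The list of oil bodies and globulins held 4 genes: the member oleosin, ole16, ole17 and glb1. limma called 0 of them higher and 2 lower in nkd1-Ds than in WT (ole17 and the member), and 4 higher and 0 lower in nkd2-Ds. The member and ole17 met the rule on these same values, so their part of the counts follows from the choice. ole16 averaged 62.0 ± 12.5 RPKM in nkd1-Ds, 139.6 ± 35.7 RPKM in nkd2-Ds and 71.9 ± 6.31 RPKM in WT, and glb1, a storage globulin gene, averaged 4.91 ± 0.608 RPKM in nkd1-Ds, 34.7 ± 13.2 RPKM in nkd2-Ds and 6.02 ± 1.28 RPKM in WT. In nkd1-Ds neither had a call, with log2 differences from WT of -0.23 for ole16 (limma adjusted p = 0.284) and -0.24 for glb1 (limma adjusted p = 0.377). In nkd2-Ds both were called higher, by 0.91 for ole16 (limma adjusted p = 0.00162) and 2.29 for glb1 (limma adjusted p = 4.50e-06). OBAP2B, another gene of the OBAP family, was under the WT minimum of the rule at 1.52 ± 0.173 RPKM in WT, with 0.994 ± 0.0714 RPKM in nkd1-Ds and 3.25 ± 0.964 RPKM in nkd2-Ds. It was called lower in nkd1-Ds (log2 difference -0.34, limma adjusted p = 0.0489) and higher in nkd2-Ds (0.73, limma adjusted p = 0.00147). The nkd1-Ds difference depends on scaling: with reads scaled by library total it was -0.03 for OBAP2B, 0.31 for ole16 and 0.22 for glb1, but -1.86 for ole17 and -0.77 for the member oleosin, while all 5 stayed higher in nkd2-Ds than in WT. On that scale the median of all genes was 0.40.

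In the deposited RPKM the summed markers of the aleurone, an oil-rich tissue like the embryo, were lowest in nkd1-Ds and highest in nkd2-Ds. Those of the embryo were highest in nkd2-Ds. The 8 aleurone markers summed to 139.8 to 183.3 RPKM in nkd1-Ds, 241.9 to 425.5 RPKM in nkd2-Ds and 190.9 to 210.0 RPKM in WT, and the 4 embryo markers to 64.4 to 93.8 RPKM in nkd1-Ds, 110.4 to 191.6 RPKM in nkd2-Ds and 74.0 to 90.6 RPKM in WT. The aleurone difference between nkd1-Ds and WT depends on scaling. With reads scaled by library total, the ratio of nkd1-Ds to WT was 1.28 for vpp1, 1.37 for Sal1 and 2.01 for dek1. It was 1.59 for cr4, but 0.543 for c1 and 0.243 for ole17. The log2 differences from WT on that scale were 0.31 for ole16 and 0.22 for glb1, both under the median of all genes, 0.40. The ratios of the other aleurone markers include this shift of all genes. Both the aleurone and the embryo list hold oil-body or globulin genes. Without those, the other 5 aleurone markers summed to 81.2 to 92.6 RPKM in nkd1-Ds. They summed to 84.7 to 101.2 RPKM in nkd2-Ds and 87.8 to 93.5 RPKM in WT, so the ranges overlapped. vpp1 and Sal1, at 44.2 and 32.8 RPKM in WT, made up most of each sum. c1, at 0.648 RPKM in WT, was called lower in nkd1-Ds (log2 difference -0.41, limma adjusted p = 0.00956). It was called higher in nkd2-Ds (0.45, limma adjusted p = 0.013), and rested on 214 reads over 12 libraries. dek1 was called higher in nkd1-Ds (0.43, limma adjusted p = 0.00109). vpp1, Sal1 and cr4 had no call in either mutant. The other 3 embryo markers summed to 12.2 to 14.9 RPKM in nkd1-Ds, 11.4 to 13.7 RPKM in nkd2-Ds and 8.28 to 11.8 RPKM in WT. These 3 genes did not move together. wox2a averaged 6.40 ± 0.780 RPKM in nkd1-Ds, 6.26 ± 0.831 RPKM in nkd2-Ds and 6.66 ± 0.545 RPKM in WT, with no call in either mutant. lg3 averaged 6.71 ± 0.769 RPKM in nkd1-Ds, 3.27 ± 0.646 RPKM in nkd2-Ds and 2.64 ± 1.02 RPKM in WT, and was called higher in nkd1-Ds (limma adjusted p = 0.000117). The dehydrin gene rab17 averaged 0.325 ± 0.0445 RPKM in nkd1-Ds, 3.44 ± 0.319 RPKM in nkd2-Ds and 0.600 ± 0.238 RPKM in WT. It was called higher in nkd2-Ds (log2 difference 1.48, limma adjusted p = 3.01e-07) and had no call in nkd1-Ds (limma adjusted p = 0.0535). In bulk endosperm, fewer cells of a type and less RNA per cell cannot be told apart, and the part of these tissues in the members' values was not tested.

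The other members with a symbol were spread over several processes. hmt4 (GRMZM2G039166) codes for a homocysteine S-methyltransferase, an enzyme that makes methionine. It had 4.56, 3.70, 4.51 and 3.96 RPKM in nkd1-Ds, 13.5, 19.8, 25.1 and 24.7 RPKM in nkd2-Ds, and 7.48, 6.996, 7.87 and 8.47 RPKM in WT. gst5 (GRMZM2G308687), a glutathione transferase gene, had 1.46, 0.665, 1.37 and 1.02 RPKM in nkd1-Ds, 3.77, 5.17, 8.36 and 11.96 RPKM in nkd2-Ds, and 2.87, 2.15, 2.15 and 1.73 RPKM in WT. The nkd2-Ds libraries of gst5 were the most widely spread in proportion among these genes. aprl2 (GRMZM2G087254) had 1.43, 1.30, 1.40 and 1.32 RPKM in nkd1-Ds, 9.74, 9.20, 10.2 and 8.97 RPKM in nkd2-Ds, and 5.38, 6.67, 5.53 and 5.67 RPKM in WT, and here nkd2-Ds replicate 1 lay inside the range of its group. mtl2 (GRMZM2G402564) averaged 8.54 ± 1.46 RPKM in nkd1-Ds, 52.9 ± 11.7 RPKM in nkd2-Ds and 22.0 ± 0.906 RPKM in WT. sfp3 (GRMZM2G042171) averaged 1.58 ± 0.169 RPKM in nkd1-Ds, 3.34 ± 0.750 RPKM in nkd2-Ds and 2.17 ± 0.0775 RPKM in WT, a ratio of nkd2-Ds to nkd1-Ds of 2.11.

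**Figure D1:**
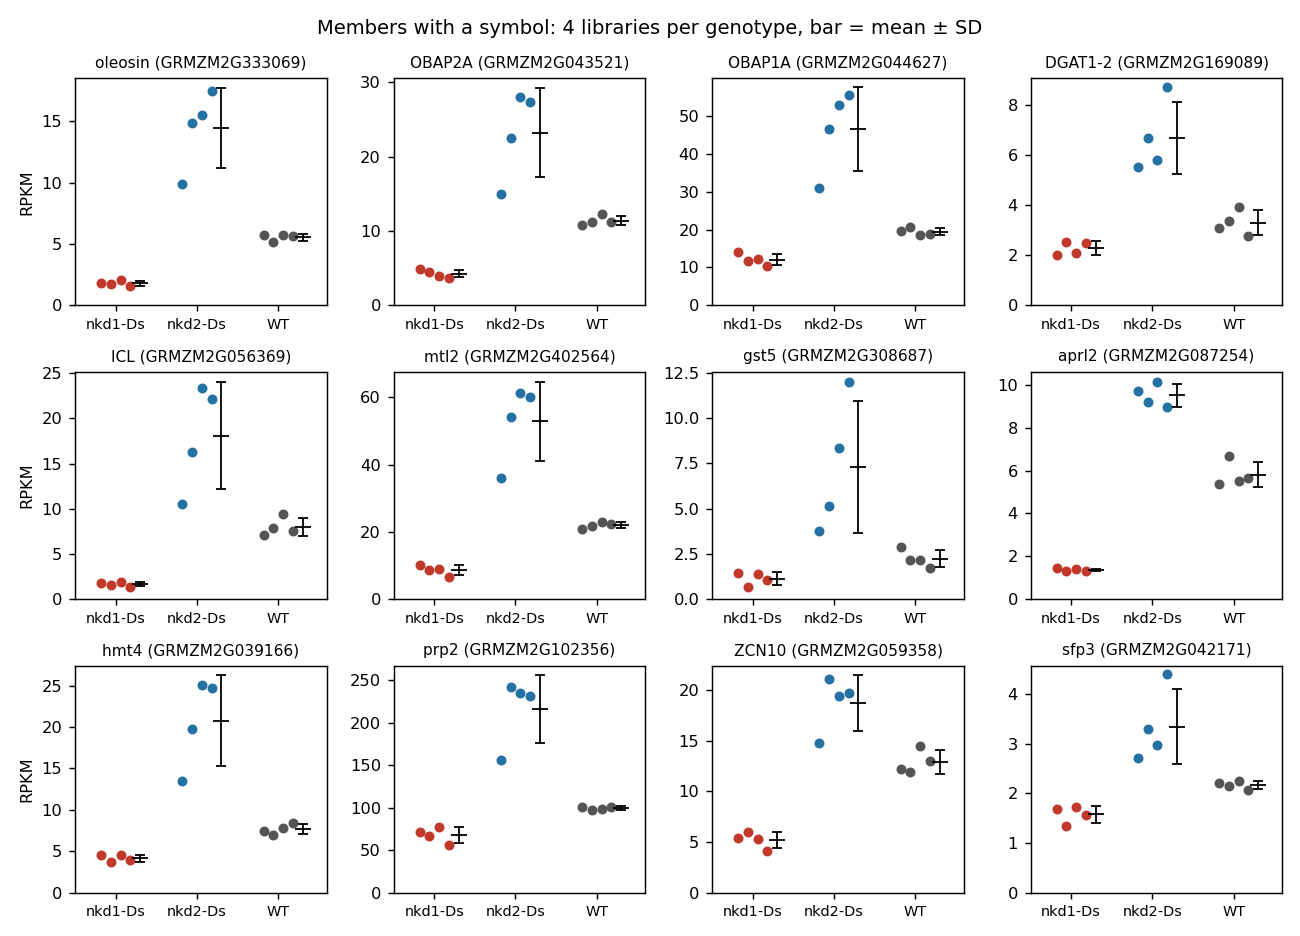
RPKM of 12 members with a symbol, 1 panel each, with a point per library (4 each of nkd1-Ds, nkd2-Ds and WT) and a bar for mean ± SD. The nkd2-Ds points have the largest SD in every panel but that of aprl2, and run from 3.77 to 11.96 RPKM for gst5. Replicate 1, the leftmost nkd2-Ds point, is the lowest in most panels but not for aprl2.

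The glutathione transferase list, to which gst5 belongs, held 18 genes. Of these 13 were tested. limma called 7 higher and 1 lower in nkd1-Ds than in WT, where it called 26.5% of all genes higher and 29.2% lower. It called 4 higher (gst5 included) and 1 lower in nkd2-Ds, where the shares of all genes were 12% and 13.6%. The most abundant in WT was gst1, with 144.8 ± 20.3 RPKM in nkd1-Ds, 155.8 ± 19.3 RPKM in nkd2-Ds and 159.2 ± 5.88 RPKM in WT and no call in either mutant. gst31 was called lower in both, at 7.48 ± 1.01 RPKM in nkd1-Ds, 17.0 ± 2.28 RPKM in nkd2-Ds and 24.7 ± 1.61 RPKM in WT. The 7 called higher in nkd1-Ds differed from WT by 2.74 (gst19), 2.68 (gst41), 1.99 (gst23), 1.57 (gst42), 0.77 (gst17), 0.74 (gst3a) and 0.69 (gst6) on the log2 scale. With reads scaled by library total gst31 stood at -1.08 in nkd1-Ds and -0.36 in nkd2-Ds, and gst5 stood at -0.25 in nkd1-Ds and 1.30 in nkd2-Ds.

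ZCN10, a gene of the phosphatidylethanolamine-binding protein family that includes flowering regulators, was listed as 2 gene models. GRMZM2G059358 averaged 5.22 ± 0.781 RPKM in nkd1-Ds, 18.7 ± 2.75 RPKM in nkd2-Ds and 12.9 ± 1.14 RPKM in WT, and GRMZM2G152689 averaged 5.22 ± 0.770 RPKM in nkd1-Ds, 18.6 ± 2.65 RPKM in nkd2-Ds and 12.8 ± 1.18 RPKM in WT. Both belong to 1 RefSeq entry and their reads over the 12 libraries were nearly the same, so they count as 1 measurement.

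The 5 members with the highest WT level had ratios of nkd2-Ds to nkd1-Ds of 2.103 to 23.2. GRMZM2G002630 had 141.0, 149.8, 184.0 and 190.4 RPKM in nkd1-Ds, 477.2, 501.8, 491.8 and 403.3 RPKM in nkd2-Ds, and 347.4, 321.9, 283.2 and 365.7 RPKM in WT. GRMZM2G325118 had 11.3, 10.8, 13.0 and 15.9 RPKM in nkd1-Ds, 238.2, 335.3, 321.1 and 289.5 RPKM in nkd2-Ds, and 113.1, 89.3, 169.2 and 158.2 RPKM in WT. Its nkd2-Ds mean was 23.2 times its nkd1-Ds mean, whereas that of GRMZM2G002630 was 2.82 times. prp2 (GRMZM2G102356) averaged 67.9 ± 8.95 RPKM in nkd1-Ds, 216.2 ± 40.5 RPKM in nkd2-Ds and 99.5 ± 2.199 RPKM in WT. GRMZM2G060940 averaged 37.7 ± 3.22 RPKM in nkd1-Ds, 110.0 ± 14.5 RPKM in nkd2-Ds and 57.2 ± 5.25 RPKM in WT. GRMZM2G169671 averaged 20.8 ± 2.47 RPKM in nkd1-Ds, 43.7 ± 7.999 RPKM in nkd2-Ds and 28.2 ± 1.87 RPKM in WT.

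At the top of the ratios stood a gene that was almost silent in nkd1-Ds. GRMZM2G385787 had 0, 0, 0 and 0.0413 RPKM in nkd1-Ds, 18.1, 28.6, 25.4 and 24.2 RPKM in nkd2-Ds, and 12.5, 14.3, 12.9 and 13.1 RPKM in WT. The nkd1-Ds values rest on 1 read in 4 libraries, against 1811 reads in nkd2-Ds and 1004 reads in WT. With reads divided by the summed library factors, WT over nkd1-Ds was 1297 with an exact 95% counting interval of 232 to 51288, which covers counting error only. GRMZM2G137868 averaged 0.0690 ± 0.0508 RPKM in nkd1-Ds, 6.36 ± 1.19 RPKM in nkd2-Ds and 2.15 ± 0.356 RPKM in WT. GRMZM5G873767 averaged 0.343 ± 0.102 RPKM in nkd1-Ds, 14.1 ± 3.20 RPKM in nkd2-Ds and 5.91 ± 0.580 RPKM in WT. GRMZM2G169943, which matched 2 RefSeq entries and is given no name, averaged 0.240 ± 0.0726 RPKM in nkd1-Ds, 5.94 ± 1.84 RPKM in nkd2-Ds and 2.08 ± 0.648 RPKM in WT. In these 4 genes WT was many times nkd1-Ds, while nkd2-Ds was 1.82 to 2.96 times WT.

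At the ratio threshold of 2 the members just inside were GRMZM2G314898 (ratio 2.002), GRMZM2G450498 (2.01) and GRMZM2G047601 (2.05). Just outside were GRMZM2G033570 (1.99), EREB156 (GRMZM2G421033, 1.96), a gene of the AP2/EREBP transcription factor family, and GRMZM5G815369 (1.89). GRMZM2G450498 averaged 12.2 ± 1.36 RPKM in nkd1-Ds, 24.4 ± 7.05 RPKM in nkd2-Ds and 15.7 ± 0.566 RPKM in WT. EREB156 averaged 2.51 ± 0.383 RPKM in nkd1-Ds, 4.92 ± 1.28 RPKM in nkd2-Ds and 3.30 ± 0.0932 RPKM in WT. The values on both sides of the threshold were of like size.

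Several members could not be taken as separate measurements. Whole reads were recovered from the RPKM steps, and the reads of each pair of members over the 12 libraries were compared by chi-square per degree of freedom, for which counting noise alone gives about 1. Of 3403 pairs 31 were under 0.3, closer than independent counts usually are, although single pairs can fall there by counting noise. These 31 pairs linked 15 members into 4 groups of 9, 2, 2 and 2. Counting each group once left 72 separate profiles. The closest pair, GRMZM2G043216 and GRMZM2G012474, gave 0.00355. Among 23842 other genes with at least 500 reads, 14 lay under 1 from GRMZM2G043216, and all were members, which makes 15 gene models with 1 profile. Only 1 of the 15 had a RefSeq entry. GRMZM2G043216 was singled out after its values were seen, as were the limits of 0.3 and 500 reads.

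The gene nearest to GRMZM2G043216 that is no member was sus2 (1.23), which codes for a sucrose synthase, an enzyme that cleaves incoming sucrose for starch synthesis. sus2 had 5.41, 5.26, 7.38 and 6.99 RPKM in nkd1-Ds, 36.6, 45.6, 50.8 and 52.1 RPKM in nkd2-Ds, and 29.8, 26.6, 28.6 and 24.3 RPKM in WT. GRMZM2G311182, the most read of the 15 models, had 4.01, 3.80, 5.62 and 5.11 RPKM in nkd1-Ds, 26.9, 33.5, 36.7 and 39.2 RPKM in nkd2-Ds, and 21.7, 19.3, 20.1 and 17.9 RPKM in WT. Its 24286 reads came to 76.4% of those of sus2, and its chi-square per degree of freedom to sus2 was 0.423. Over the 15 models that value ran up to 1.73, and it was under 1 for 5. Their ratios of nkd2-Ds to nkd1-Ds were 5.69 to 7.42, and sus2 itself gave 7.39. Whether the models hold reads of sus2, of each other or of repeated sequence was not tested, since no sequence was used here. Their values are uncertain as measures of separate genes.

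**Figure D2:**
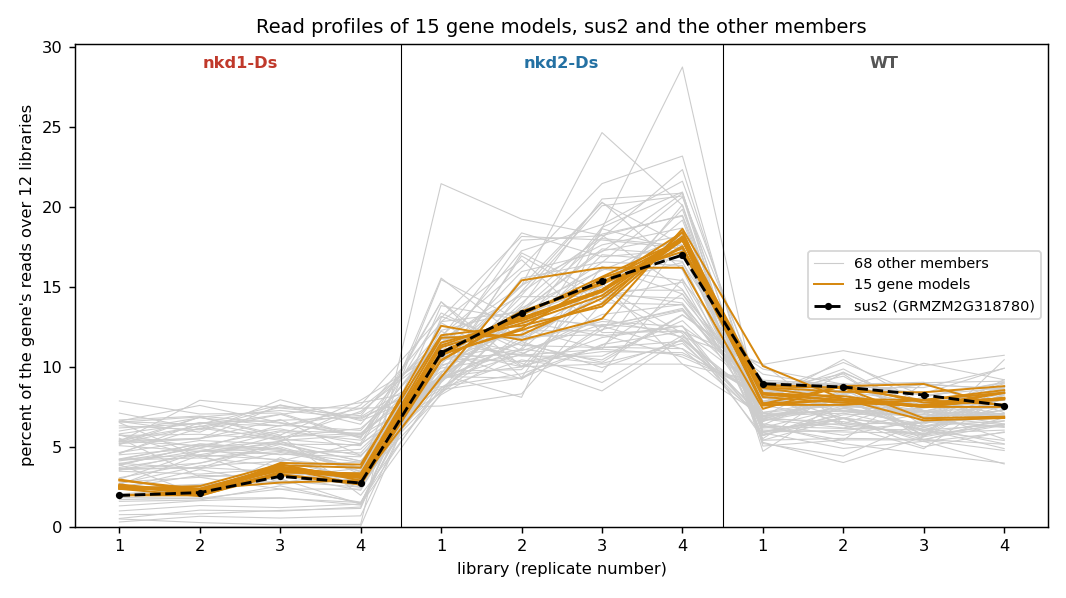
Share of each gene's reads (percent of its total over 12 libraries) in each library, for the 15 gene models (orange), sus2 (black, dashed) and the 68 other members (grey). The orange lines nearly coincide with each other and with sus2, while the grey lines spread widely.

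3 members were consecutive among the placed genes of the RefSeq annotation (Zm-B73-REFERENCE-NAM-5.0): GRMZM2G002630, GRMZM2G112238 and GRMZM2G025959. GRMZM2G025959 had 2.35, 2.81, 2.41 and 3.11 RPKM in nkd1-Ds, 31.3, 52.5, 51.7 and 51.4 RPKM in nkd2-Ds, and 19.7, 19.4, 20.5 and 21.0 RPKM in WT. GRMZM2G112238 averaged 3.57 ± 0.492 RPKM in nkd1-Ds, 15.7 ± 3.66 RPKM in nkd2-Ds and 6.88 ± 0.424 RPKM in WT. Their read profiles differed, with chi-square per degree of freedom of 33.4 to 302.6 between the 3 genes. Of 49 members placed once, 5 were on the chromosome of nkd1, the nearest 106 genes away, and 0 were on that of nkd2.

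Within each mutant the members' median spread was above that of all genes. Their median coefficient of variation was 14.6% in nkd1-Ds, 18.1% in nkd2-Ds and 9.88% in WT, against 9.28%, 10.4% and 9.18% over all genes averaging 2 RPKM or more. This comparison was not matched for level, on which counting noise depends. The members' median level was 1.96 RPKM in nkd1-Ds, 9.51 RPKM in nkd2-Ds and 5.35 RPKM in WT. nkd2-Ds replicate 1 was the lowest of its group for 60 of the 83 members and for 50 of the 72 separate profiles, against 23.9% of all genes. Its median deviation from the group mean was -0.25 on the log2 scale, while replicates 3 and 4 stood at 0.13 and 0.14. Marker sums also differed between these libraries. In nkd2-Ds replicates 1 to 4 the 10 basal transfer layer markers summed to 72.4, 405.0, 350.3 and 1031 RPKM, and the 5 embryo-surrounding region markers to 0.325, 3.34, 7.23 and 19.6 RPKM. The 8 aleurone markers summed there to 241.9, 312.6, 370.0 and 425.5 RPKM, and the 9 starchy endosperm markers to 142422, 102021, 93986 and 92680 RPKM. In nkd1-Ds the basal transfer layer markers summed to 234.4 to 478.2 RPKM and in WT to 167.1 to 846.7 RPKM, and those of the embryo-surrounding region to 3.32 to 7.01 RPKM in nkd1-Ds and 2.14 to 6.49 RPKM in WT. The part of these tissues in the members' order among nkd2-Ds libraries was not tested. The rule requires the lowest nkd2-Ds library to exceed WT, so this library set the limit for most members. Without it the rule gave 115 genes, and for the 83 members the median ratio of nkd2-Ds to WT was 1.90 in place of 1.79.

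**Figure D3:**
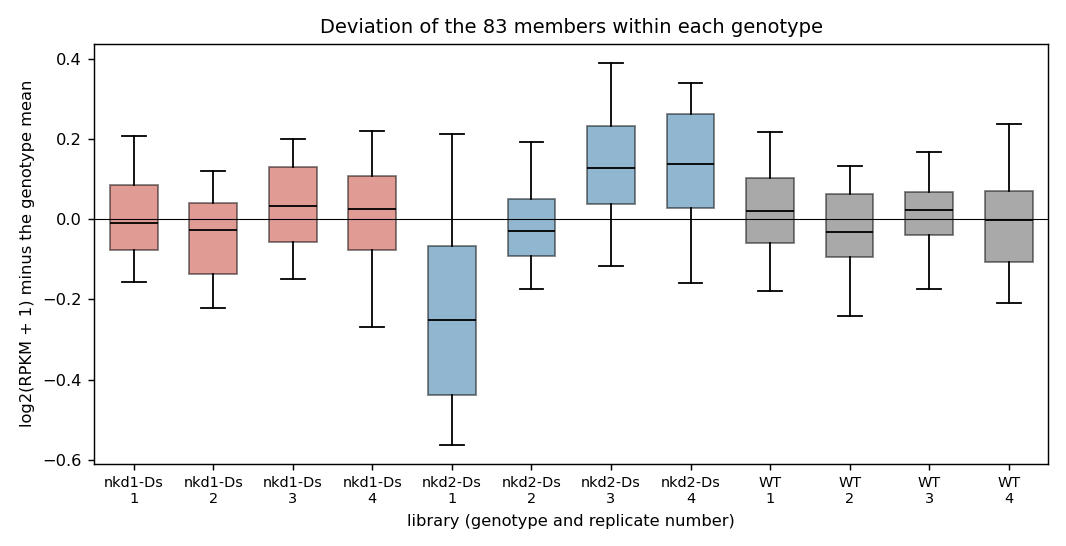
Deviation of the 83 members from their genotype mean of log2(RPKM + 1) in each of 12 libraries. Boxes show the interquartile range with the median as a line, and whiskers the percentiles 5 to 95. nkd2-Ds replicate 1 sits lowest, with a median of -0.25.

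All 12 libraries chose the 83 members, so sets chosen on fewer libraries were also described. The rule was applied to 9 libraries, and the 3 libraries of the replicate number left out were then compared. With replicate 1 left out, 97 of 126 chosen genes (77.0%) had nkd1-Ds below WT and nkd2-Ds above WT in the held-out libraries, against 17.8% of all genes with the WT mean. With replicates 2, 3 and 4 left out it was 90 of 100, 93 of 98 and 93 of 113 genes, against 15.9%, 15.2% and 12.5% of all genes. The side that failed with replicate 1 was nkd2-Ds, which was above WT for 98 of the 126 genes, while nkd1-Ds was below WT for 125. Sets chosen in this way are not the 83 members, of which they held 78 to 82. Members have the order in every library by the rule, so these shares are no test of the members.

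How far nkd1-Ds lay below WT in absolute terms depended on how libraries are scaled. Such scaling multiplies all genes of a library by the same factor, so the members' position relative to all genes is nearly fixed by construction. The library factors in the deposited values were 34.3 to 40.5 megareads in nkd1-Ds, 27.8 to 30.9 megareads in nkd2-Ds and 27.3 to 31.1 megareads in WT. Assigned reads came to 37.6 to 40.6 megareads in nkd1-Ds, 35.3 to 47.4 megareads in nkd2-Ds and 39.8 to 48.0 megareads in WT. With reads scaled by each library's total, the median log2 difference of all genes between nkd1-Ds and WT was 0.40 in place of -0.02, and that between nkd2-Ds and WT was 0.11 in place of -0.01. On that scale the rule gave 37 genes, 31 of them among the 83, and the mirror rule gave 31. In nkd1-Ds 47 of the 83 members were wholly below WT. The share of all genes wholly below WT was not counted on that scale, where limma called 1874 of 25460 genes lower. The nkd1-Ds mean exceeded the WT mean for 11 of the 83 members, among them DGAT1-2, whereas the nkd2-Ds mean exceeded it for all 83. The members were chosen for this order on the same reads, so these counts describe them and carry no weight of their own. Relative to the median of all genes, the members' median was lower by 0.88 in nkd1-Ds on that scale and by 0.93 on the authors' scale. These values could differ only through the 1 RPKM added before taking logs. Of the 31 members kept, 14 were among the 15 models with the sus2-like profile. Others kept were oleosin, with a ratio of nkd1-Ds to WT of 0.476 on this scale, OBAP2A (0.545), ICL (0.299), aprl2 (0.342) and mtl2 (0.567). OBAP1A was not kept, at 0.901.

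**Figure D4:**
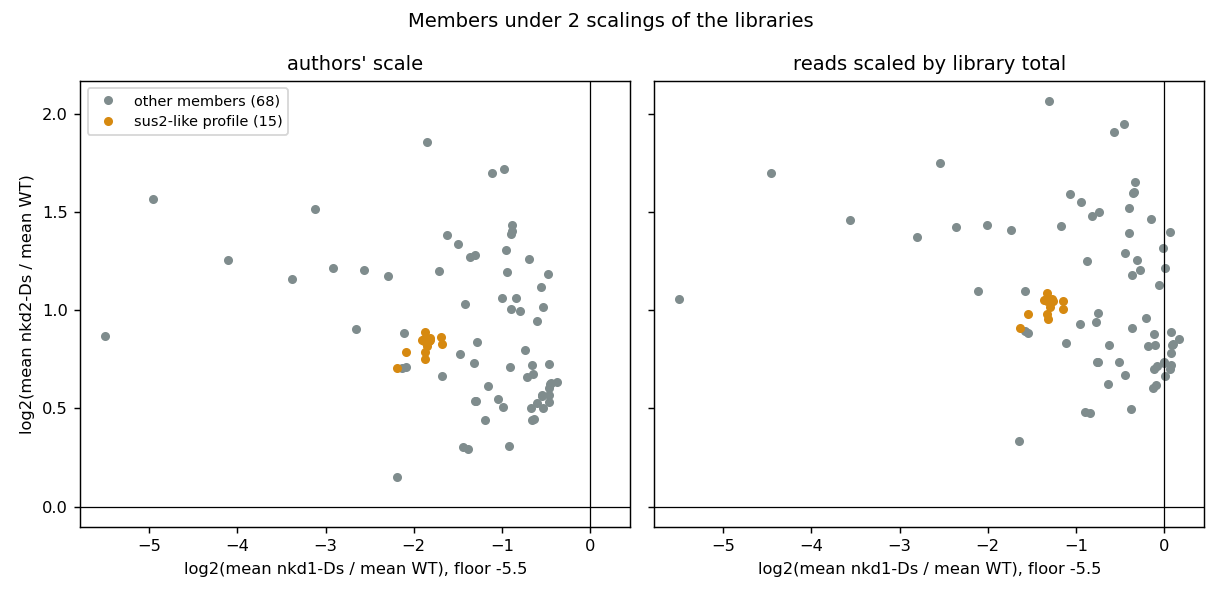
log2 ratio of nkd1-Ds to WT (horizontal, floor at -5.5) and of nkd2-Ds to WT (vertical) for each of the 83 members, on the authors' scale and with reads scaled by library total. Orange points are the 15 models with the sus2-like profile. On the right 11 members lie past 0 on the horizontal axis, and none lies under 0 on the vertical axis in either panel.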

How the data were processed

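Whole endosperm RNA was sequenced from poly(A)-selected, strand-specific libraries, per the labels' protocols. The submitters' processing notes list TopHat2 2.1.1, Cufflinks 2.2.1, featureCounts and FastQC, and no source used here gives the genome build, annotation or strand setting. The deposited values are RPKM, 1 table per library, judged from the values because the file headers name only the sample. The RPKM steps gave back whole reads, library factors and gene lengths for 34307 of 34307 genes above 0, with a tolerance of 0.02 reads. A member's reads over 12 libraries numbered 620 to 203853. Whether the 4 libraries of a genotype came from separate plants is stated only as biological replicates.

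limma-trend (limma 3.58.1 under R 4.3.3) was fitted to log2(RPKM + 1) of genes averaging 1 RPKM or more in any genotype, with all 12 libraries and genotype as the only factor. The steps were tested on simulated data. Genes named are members with a symbol, the 5 with the highest WT mean, the 5 with the largest and the 3 with the lowest ratio, the 3 nearest outside the ratio, and up to 6 genes of a list that holds a member. Named beyond these were nkd1, nkd2, OBAP2B, marker genes and genes singled out for shared reads, gene order or a missing call. All glutathione transferase genes with a call in nkd1-Ds were named too, which passed the limit of 6. Members and lists were chosen with earlier results of these data known. The longer set of pathway lists could not be matched by product name, and only lists with symbols were used. RefSeq served for names and gene order alone. Alternatives were other scalings, pseudocounts, filters, rule thresholds, a replicate block and leaving out each library.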

Additional observations from a re-analysis of the deposited data

Results flagged for a closer look

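Among 72 sets of 4 libraries (24 named members in 3 genotypes), 3 held a library far from the other three, and chance flags about 1 in 20 such sets. prp2 (GRMZM2G102356) had 155.8 RPKM in nkd2-Ds replicate 1, against 231.6 to 242.2 RPKM in the other nkd2-Ds libraries. GRMZM2G169671 had 25.46 RPKM in WT replicate 3, against 28.83 to 29.39 RPKM in the other WT libraries. GRMZM2G385787 had 0.04131 RPKM in nkd1-Ds replicate 4, which is 1 read, against 0 in the other nkd1-Ds libraries.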

How the results depend on the processing

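The number of members was 83, and it was 32 with libraries scaled to equal RPKM sums (28 of the 83 kept), 37 with total-reads scaling, 43 with a WT minimum of 5 RPKM and 137 with no ratio. The mirror rule gave 33 genes with equal RPKM sums, against 22 on the authors' scale. Quantile normalization gave 83 genes, 78 of them the same, and leaving out each library gave 82 to 115. Counting each group of members with closely matching reads once, an alternative chosen after seeing the data, gave 72. Over all genes, limma called 7077 higher and 7800 lower in nkd1-Ds than in WT, 3199 higher and 3624 lower in nkd2-Ds than in WT, and 5759 higher and 5398 lower in nkd2-Ds than in nkd1-Ds. With equal RPKM sums there were 19042 higher and 1568 lower in nkd1-Ds, 1071 lower in nkd2-Ds against WT, and 1100 higher and 15370 lower in nkd2-Ds against nkd1-Ds. With total-reads scaling these counts were 16004, 1874, 1158, 1327 and 12346. These scalings moved the median of all genes, by construction of the factors. With equal RPKM sums the log2 difference between nkd1-Ds and WT turned positive for 8 of the 24 named members: 0.12 for prp2 (GRMZM2G102356), 0.11 for DGAT1-2 (GRMZM2G169089), 0.15 for sfp3 (GRMZM2G042171), 0.0839 for GRMZM2G060940, 0.23 for GRMZM2G169671, 0.16 for GRMZM2G047601, 0.29 for GRMZM2G450498 and 0.14 for GRMZM2G314898. All are under the median of all genes on that scale, 0.54. With total-reads scaling 6 turned positive: 0.009 for DGAT1-2, 0.0525 for sfp3, 0.0942 for GRMZM2G169671, 0.0538 for GRMZM2G047601, 0.16 for GRMZM2G450498 and 0.0399 for GRMZM2G314898, against a median of 0.40. No named member changed sign in nkd2-Ds under any alternative run, or under quantile normalization, a pseudocount of 0.1 or a left-out library in nkd1-Ds.

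With the replicate block limma called 6812 higher and 7470 lower in nkd1-Ds than in WT, 2819 higher and 3220 lower in nkd2-Ds than in WT, and 5350 higher and 5015 lower in nkd2-Ds than in nkd1-Ds. Same-numbered libraries had correlations of -0.276 to 0.125, so the numbers are not read as pairs. The promoter motif comparison was not run, because no promoter sequence was used here. Depth limits the lowest members: 620 reads over 12 libraries stood behind the least read one.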
